A study of Mus musculus with 14 samples.

Results

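The genes described here are 43 interferon-stimulated genes, taken by name from the 55427 genes of the deposited liver expression table. They were measured by RNA-seq in 14 mouse liver libraries of a diet study. The male mice were 8 to 10 weeks old and were fed for 14 weeks. Chow (n = 3), FFD (fast food diet with high-fructose drinking water, n = 3), HiAD (the same food cooked so that it is rich in advanced glycation end products, n = 3) and HiAD+PM mice (n = 2) all carried a floxed RAGE allele without Cre, on a C57B6 background. HiAD+PM mice received pyridoxamine (PM), which lowers the formation of glycation products, by daily intraperitoneal injection at 60 mg/kg from week 5. By the study's figure legends the HiAD mice were given vehicle, and no injection of the FFD mice is stated. RageHepKO mice (n = 3) carried the floxed allele with Alb cre, whose albumin promoter is active in hepatocytes, and were fed HiAD. RAGE, encoded by Ager, is a receptor for glycation end products, and the Cre leaves it in the other cells of the liver.

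Values were read as fragments per length of transcript and library size (FPKM), were scaled between libraries and are called scaled FPKM below. Ager itself went against the labels: it was at 0.0811 to 0.184 scaled FPKM in the HiAD libraries, below every library labelled RageHepKO (0.198 to 1.9) and every other library (0.801 to 2.78). The major histocompatibility genes H2-Bl and H2-Q1 also set the HiAD libraries apart, at 0 to 0.0771 and 10.8 to 29.3 scaled FPKM, against 2.59 to 15.8 and 0.742 to 3.66 in the other 11 libraries. The name RageHepKO below stands for the libraries so labelled. Every comparison with HiAD rests on the same 3 HiAD libraries, and whether those mice differed from the others in more than the diet was not tested. Transcripts of the mitochondrial genome took 24.3% to 53.1% of the signal in the libraries labelled RageHepKO, 6.06% to 10.1% in FFD and 13.1% to 24.1% elsewhere. Hepatocyte markers summed to 15755 to 38146 scaled FPKM, so all libraries were liver by their markers. In bulk liver, fewer cells of a type and less RNA per cell cannot be told apart.

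Interferons are secreted alarm proteins. Type I interferons act through a receptor whose kinases activate STAT2, which joins IRF9 in a complex that binds the interferon-stimulated response element (ISRE) of target genes. Interferon gamma acts on genes with a gamma-activated site (GAS), and induces IRF1 and the immunity-related and guanylate-binding GTPases. The targets block viral entry, translation and replication, tag proteins with ISG15, sense foreign nucleic acid, or feed back on the pathway, and in liver both hepatocytes and Kupffer cells, its resident macrophages, express them.

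The promoters of the genes were read for these elements, whether or not a gene was tested. RefSeq windows of 250 bases before to 50 bases after the start site (GRCm38.p6) were matched for 31 of the 43 genes. GAAANNGAAA, the repeat within the ISRE, was searched on both strands and was found in 17 of the 31 (54.8%), against 3.99% of the 27025 genes with a window. TTCNNNGAA, the GAS palindrome, was found in 8 of the 31 (25.8%), against 9.55%. Of the GTPases, Igtp, Irgm1, Gbp2, Gbp3 and Gbp7 had the repeat and Igtp and Gbp7 also the palindrome, while neither was found in the window of Irf7 or Ifi47. These are matches of letters in 1 window per start site and not measured binding.

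Stretches of 100 bases upstream of the start site are shown for 4 genes that are named again below, 5′ to 3′ on the strand of the gene, with both motifs in capitals. They are Isg15 (chr4:156200836-156200935, minus strand), Igtp (chr11:58199456-58199555, plus strand), Gbp7 (chr3:142530211-142530310, plus strand) and Ifit3 (chr19:34583345-34583444, plus strand).
Isg15: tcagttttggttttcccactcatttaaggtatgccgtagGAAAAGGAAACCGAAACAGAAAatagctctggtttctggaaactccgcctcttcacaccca
Igtp: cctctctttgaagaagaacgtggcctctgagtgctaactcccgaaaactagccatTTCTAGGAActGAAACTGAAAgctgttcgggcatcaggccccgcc
Gbp7: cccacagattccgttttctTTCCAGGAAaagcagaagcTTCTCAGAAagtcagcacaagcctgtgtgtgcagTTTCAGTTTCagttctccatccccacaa
Ifit3: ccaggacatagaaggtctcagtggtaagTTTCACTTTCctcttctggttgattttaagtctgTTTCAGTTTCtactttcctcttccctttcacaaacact
In Isg15 the repeats overlap in a single run that starts 78 bases before the start site. In Igtp the palindrome and the repeat lie 45 and 34 bases before it, and Gbp7 has palindromes 106 and 87 bases and a reverse-strand repeat 53 bases before it. The stretch of Ifit3 holds 2 reverse-strand repeats and was identical, at 100 of 100 bases, to chr19:34607741-34607840, plus strand, upstream of Ifit3b. The transcripts of Ifit3 and Ifit3b share sequence as well: 41.1% of the 75-base words of Ifit3 also occur in Ifit3b, and 47.6% of those of Oas1a occur in Oas1g, so reads may have been split between the genes of each pair. For Gbp7 the shared part was 11.3% (mostly with Gm43802), for Herc6 11.3% (mostly with Gm45193), for Igtp 7.8% (with Irgm2) and for Ifit1 5.19% (with Ifit1bl2).

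Levels ran from near the limit of the table to among the well-expressed liver genes. The GTPase Iigp1 reached 90 scaled FPKM and Bst2, the membrane tether of budding virus particles, 184, while 17 of the 43 genes were at 1 or more in every library. Tested genes had at least 1 scaled FPKM in at least 2 libraries, which 39 of the 43 met. The 4 that were not tested were Oas1g and Oas3, which make the oligoadenylates that activate RNase L, the antiviral GTPase Mx1 and Ifi44. Their highest values were 0.921 (FFD R31), 1.02 (FFD R31), 2.17 (RageHepKO RA19) and 1.32 (RageHepKO RA19). Oas2 passed the filter through libraries labelled RageHepKO alone (2.9 in RA19 and 2.23 in RA21), while RA20 had 0.0928, inside the HiAD range. Herc6 passed it through RageHepKO RA19, RA20 and RA21 (1.07, 1.26 and 1.29) and chow R2 (1.25).

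Among the 39 tested genes the HiAD group had the lowest group mean for 30, chow for 5 and RageHepKO for 4. The highest mean was in HiAD+PM for 18, RageHepKO for 14, FFD for 5 and HiAD for 2. For 9 of the 39 (23.1%) every HiAD library was below each of the other 11, and 3.21% of all 12110 tested genes had this pattern. The 9 were Irf9, Herc6, Mx2, Samhd1, Rtp4, Xaf1, Ifi27, Ifi35 and Iigp1, with the narrowest gaps for Xaf1 (0.342 against 0.354 scaled FPKM) and Ifi35 (4.76 against 4.93).

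**Figure D1:**
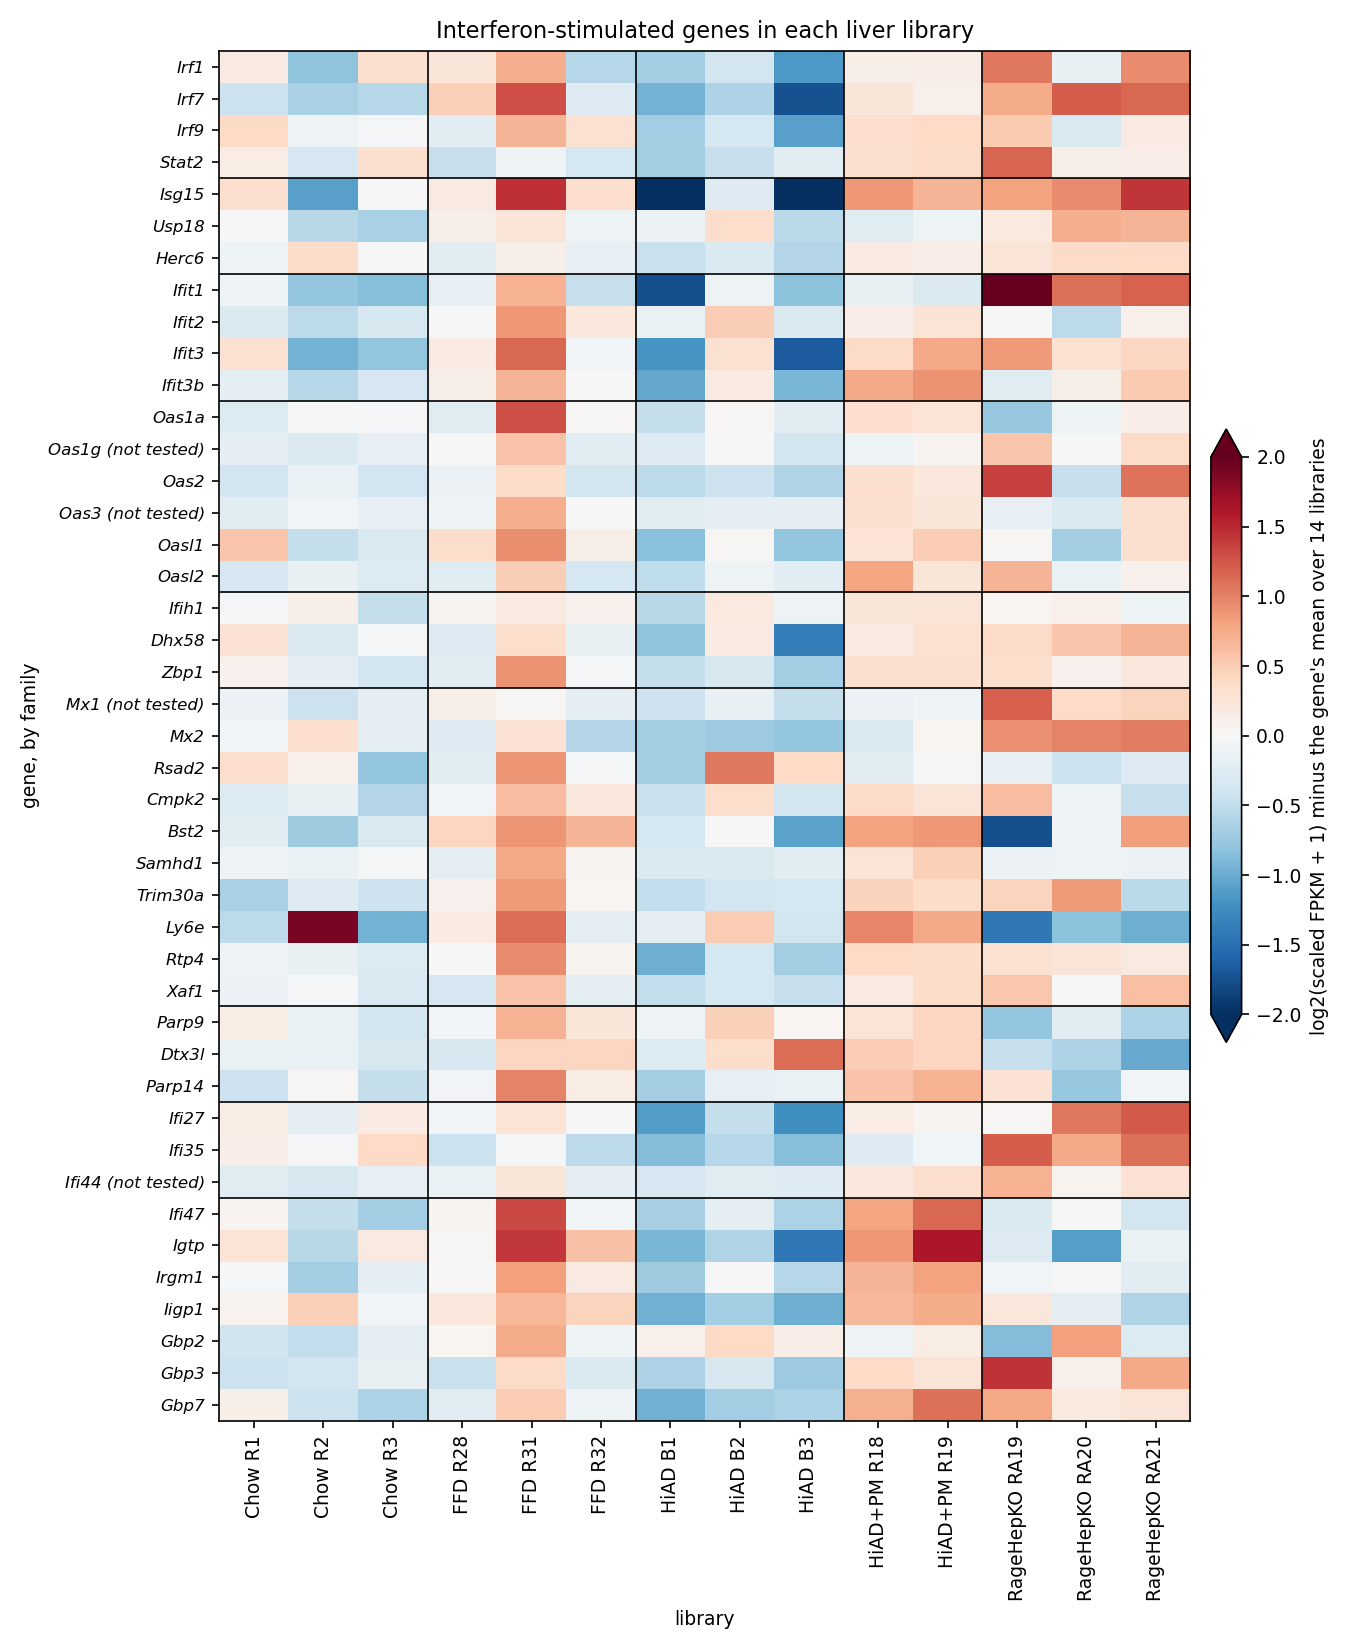
Each row is 1 of the 43 genes, grouped by family between the horizontal lines, and each column is 1 of the 14 libraries; the colour is log2(scaled FPKM + 1) minus the mean of that gene over the libraries. The median over the 39 tested genes was lowest in HiAD B1 (-0.68) and HiAD B3 (-0.63) and highest in FFD R31 (0.69).

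Single libraries weighed on these levels. FFD R31 was the highest FFD library for 38 of the 39 tested genes, and the highest of all 14 libraries for 15. HiAD B2 was the highest HiAD library for 32, while HiAD B1 and HiAD B3 were the lowest of all 14 for 12 and 14 genes. Both HiAD+PM libraries lay close together, with median deviations of 0.33 and 0.36 on the log2 scale.

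HiAD against FFD compares mice on the cooked food, given vehicle, with mice on the same food uncooked. The comparison cannot tell cooking apart from the vehicle or from other differences of the HiAD mice. Of the 39 tested genes, 5 were lower on HiAD (12.8%), against 1.45% of all tested genes, and 0 were higher, against 1.66%. The 5 were the transcription factor gene Irf7, the ubiquitin-like modifier Isg15, Rtp4, and the GTPases Igtp and Iigp1. The median log2 fold change over the 39 was -0.65, beside 0.02 over all tested genes, and 37 of the 39 were below 0. At an unadjusted p under 0.05 from limma, 20 were lower and 0 higher. The share of all tested genes at this unadjusted cutoff was not counted, here or in the comparisons below. Such counts therefore have no background to be read against. The HiAD libraries lay below all FFD libraries for 20 of the 39 (51.3%), which held for 14% of all tested genes. Fold changes here are differences of log2(scaled FPKM + 1), which understates the change of low genes.

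The transcription factors form the core of the response. Irf7 (chr7:141262706-141266481, minus strand), which amplifies type I interferon production, was at 2.98, 3.99 and 1.28 scaled FPKM in HiAD B1, B2 and B3 and at 9.67, 17.7 and 5.39 in FFD R28, R31 and R32. The chow libraries R1, R2 and R3 had 4.67, 3.9 and 4.16, HiAD+PM R18 and R19 had 8.08 and 7.22, and RageHepKO RA19, RA20 and RA21 had 11.8, 16.8 and 16.1. HiAD was below FFD, HiAD+PM and RageHepKO without overlap and overlapped chow, and the log2 fold change against FFD was -1.60 ± 0.35 (SE, adjusted p = 0.0269 from limma).

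Irf9 (chr14:55603571-55610030), the DNA-binding partner of STAT2, was at 2.85, 3.89 and 1.94 scaled FPKM in the HiAD libraries, taken here and below in the same order, and at 4.4, 9 and 6.74 in FFD. It was at 7.25, 4.81 and 5.07 in chow, 6.94 and 7.25 in HiAD+PM and 7.98, 4.09 and 6.02 in RageHepKO. The HiAD values were the lowest of all 14 without overlap, and the log2 fold change against FFD of -0.97 ± 0.28 did not pass (adjusted p = 0.0842 from limma).

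Irf1 (chr11:53770014-53778374), induced above all by interferon gamma, was at 2.7, 3.59 and 1.66 scaled FPKM in HiAD and 6.03, 8.84 and 2.99 in FFD. The values were 5.65, 2.41 and 6.37 in chow, 5.44 and 5.5 in HiAD+PM and 11.2, 4.37 and 10.5 in RageHepKO. HiAD overlapped FFD and chow, and its log2 fold change against FFD was -0.87 ± 0.40 (adjusted p = 0.309 from limma). For Stat2 (chr10:128270559-128292849), the signal transducer of type I interferon, HiAD had 4.61, 5.66 and 6.88 and FFD had 5.63, 7.72 and 6.16 scaled FPKM. Chow had 9.05, 6.21 and 10.4, HiAD+PM had 10.4 and 10.8 and RageHepKO had 19.4, 8.91 and 8.99. Its HiAD and FFD ranges overlapped, with a log2 fold change of -0.16 ± 0.28 (adjusted p = 0.814 from limma).

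Isg15 (chr4:156199424-156200818, minus strand) had the lowest fold change. HiAD livers had 1.93, 12.4 and 0.712 scaled FPKM and FFD livers 17.3, 43.3 and 19.3. Chow livers had 19, 6.55 and 15, HiAD+PM livers 28.4 and 24.7 and RageHepKO livers 27.1, 29.9 and 42.3. Within HiAD, B2 stood well above B1 and B3 and inside the chow range, yet below every FFD library, and the log2 fold change against FFD was -2.65 ± 0.63 (adjusted p = 0.0408 from limma). Usp18, which strips ISG15 from proteins and dampens the receptor, and Herc6, the mouse ISG15 ligase, did not pass (-0.19 and -0.35).

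**Figure D2:**
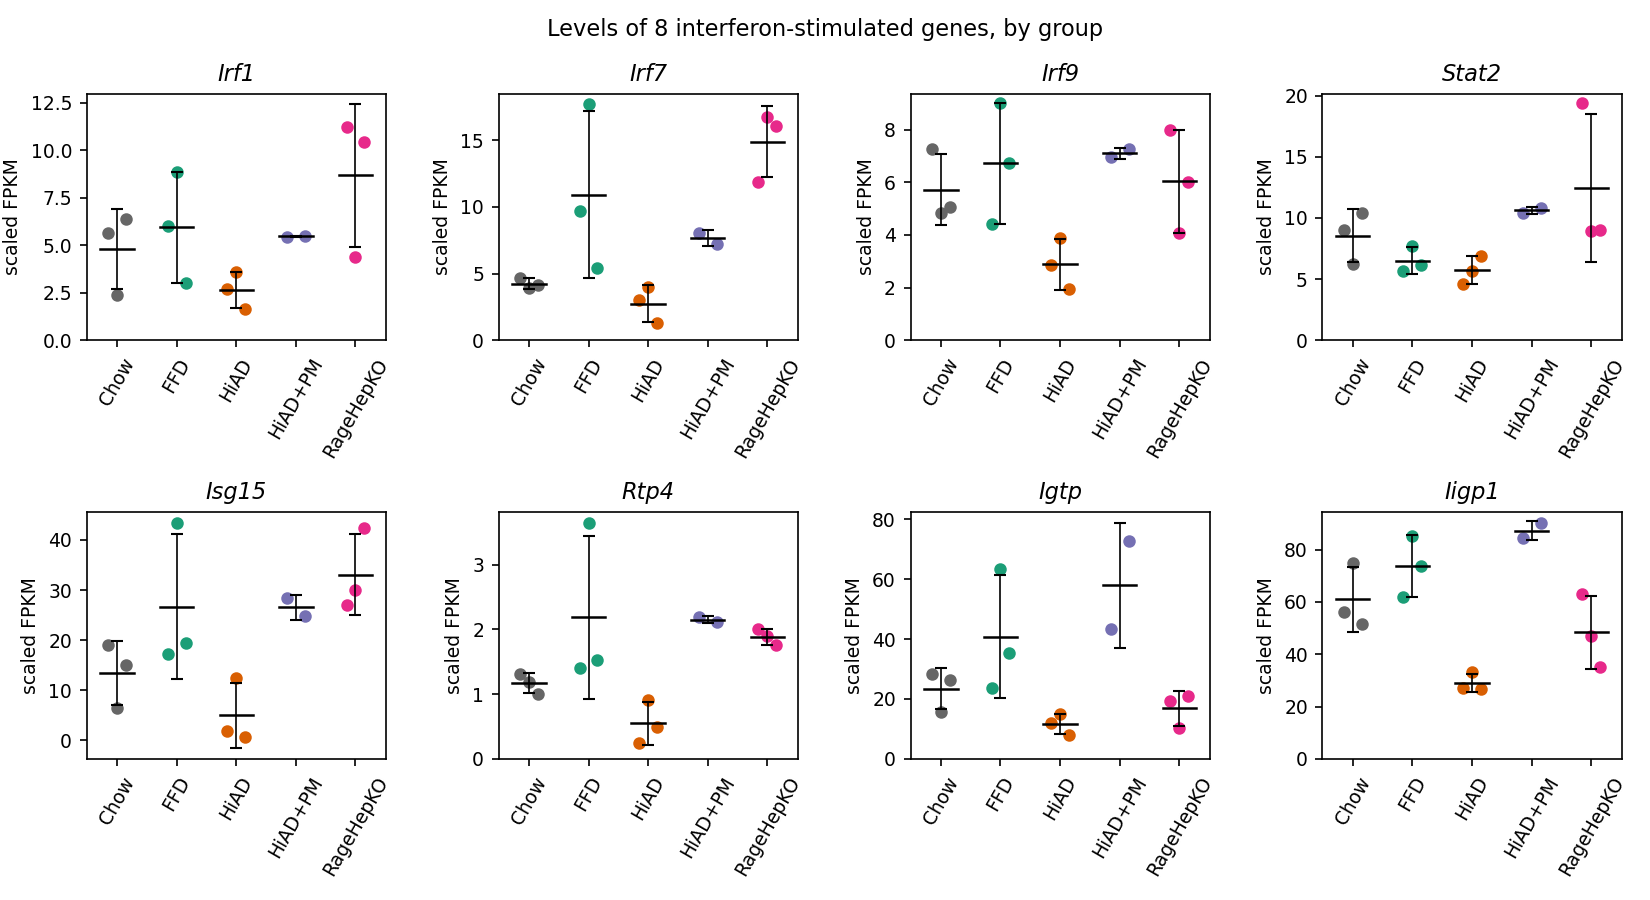
Scaled FPKM (vertical axes, each with its own range) of 8 genes in the 5 groups; points are libraries, horizontal bars group means and vertical bars 1 SD. HiAD is the lowest of all libraries without overlap for Irf9, Rtp4 and Iigp1.

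Rtp4 (chr16:23520291-23614222), a chaperone-like protein that interferon induces strongly, was at 0.237, 0.909 and 0.495 scaled FPKM in HiAD and 1.41, 3.64 and 1.52 in FFD. It had 1.32, 1.18 and 1 in chow, 2.19 and 2.12 in HiAD+PM and 2.01, 1.89 and 1.76 in RageHepKO. The HiAD libraries were below 1 and all others at or above it, and the log2 fold change against FFD was -1.0 ± 0.24 (adjusted p = 0.0407 from limma). Of its 75-base words, 10.5% occur in the overlapping gene model Gm45338.

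The immunity-related GTPases attack the vacuoles of intracellular pathogens. Iigp1 (chr18:60376027-60392634) was at 27.1, 33.1 and 26.8 scaled FPKM in HiAD and at 62, 85.4 and 73.8 in FFD. Chow livers had 56.2, 75.1 and 51.7, HiAD+PM livers 84.7 and 90 and RageHepKO livers 63, 47 and 35. HiAD lay below all other libraries, with a log2 fold change against FFD of -1.31 ± 0.23 (adjusted p = 0.00919 from limma).

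Igtp (chr11:58199556-58207591), a regulator of the same GTPase family, was at 11.9, 14.9 and 8.01 scaled FPKM in HiAD and 23.6, 63.5 and 35.4 in FFD. The other groups had 28.2, 15.5 and 26.4 (chow), 43.2 and 72.8 (HiAD+PM) and 19.3, 10.2 and 20.9 (RageHepKO). HiAD was below FFD, chow and HiAD+PM without overlap but overlapped RageHepKO, and the log2 fold change against FFD was -1.66 ± 0.39 (adjusted p = 0.0384 from limma).

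In the remaining families, counted with the genes above where they belong, 0 members passed between HiAD and FFD in the Ifit family (4 tested), the Oas family (4 tested), the nucleic acid sensors (3 tested), the Parp9-Dtx3l-Parp14 group (3 tested) and Ifi27 and Ifi35. The Ifit proteins, which bind viral RNA, had log2 fold changes from -1.27 (Ifit3) to -0.34 (Ifit2), with Ifit1 at -0.91 and Ifit3b at -0.86. Oasl1, a paralogue without oligoadenylate synthesis, stood at -0.99, Oas1a at -0.58, Oas2 at -0.48 and Oasl2 at -0.25. The RNA sensor genes Ifih1 (MDA5) and Dhx58 (LGP2) had -0.26 and -0.65, and Zbp1, which senses Z-form nucleic acid, -0.71. Among antiviral effectors Rtp4 alone passed of 9 tested, and the others ran from -1.14 for Bst2 to 0.05 for Rsad2, which encodes viperin. Cmpk2, the neighbour of Rsad2 on chromosome 12, had -0.41, the dNTP hydrolase gene Samhd1 -0.48, Trim30a -0.74, Xaf1 -0.45, Mx2 -0.55 and Ly6e -0.37. Of the other GTPases, Gbp7, Ifi47, Irgm1, Gbp3 and Gbp2 had -0.83, -0.94, -0.75, -0.43 and -0.02.

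Dtx3l, the ubiquitin ligase partner of Parp9, was the other gene with a value above 0 in this comparison, at 0.22 ± 0.31. Its scaled FPKM was 7.86, 12.7 and 22.2 in HiAD and 7.54, 13.4 and 13.4 in FFD, and HiAD B3, which was the lowest of the 14 libraries for 14 of the 39 genes, was the highest for Dtx3l. Parp9 had -0.14 and Parp14 -0.69. Exons of Dtx3l and Parp9 overlap by 458 bases on opposite strands, so reads of both may mix there unless the counting used strand, which the sources do not state.

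The count of 5 lower genes depended on single libraries. It was 0 without FFD R31 (Iigp1 then had an adjusted p of 0.0529 from limma), 1 without HiAD B1 or HiAD B3, 2 without FFD R28, FFD R32, HiAD+PM R18 or HiAD+PM R19, and 3 without RageHepKO RA21. It was 1, Iigp1, with no filter on low values. Over all tested genes the 175 lower became 71 without FFD R31, 83 without HiAD B1 and 73 without HiAD B3. They became 85 without FFD R28, 121 without FFD R32, 169 without RageHepKO RA21 and 93 with no filter. The median over the members was -0.37 without FFD R31.

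Chow served as the untreated reference. HiAD against chow gave 2 lower genes of 39 (5.13%), against 1.82% of all tested genes, and 0 higher, against 2.81%, with 8 lower and 0 higher at an unadjusted p under 0.05 from limma. Ifi35, an interferon-induced leucine zipper protein, was at 3.68, 4.76 and 3.72 scaled FPKM in HiAD and 8.38, 7.31 and 10.2 in chow (log2 fold change -0.93 ± 0.19, adjusted p = 0.0170 from limma). HiAD was below chow without overlap. Iigp1 was lower by the values given above (log2 fold change -1.03 ± 0.23, adjusted p = 0.0250 from limma). The median over the 39 was -0.23, beside -0.02 over all tested genes, and 8 of the 39 were above 0, among them Dtx3l (0.60 ± 0.31), Gbp2 (0.57 ± 0.35) and Ifit2 (0.40 ± 0.26). The count was 1 without chow R1 or chow R3, 0 without HiAD B1 or HiAD B3, 4 without HiAD B2, 1 with no filter and 0 in a fit of these groups alone. Over all tested genes the 220 lower became 156 without chow R1, 125 without chow R3, 110 without HiAD B1 and 86 without HiAD B3. They became 159 without HiAD B2, 139 with no filter and 110 in the fit of these groups alone. The median over the members was -0.42 without HiAD B2 and -0.36 without chow R3.

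FFD against chow gave 0 lower genes, against 0.0578% of all tested genes, and 0 higher, against 0.00826%, with a smallest adjusted p of 0.338 from limma. At an unadjusted p under 0.05, 5 were higher and 1, Ifi35, was lower. All FFD libraries lay above all chow libraries for 9 of the 39 (23.1%), which held for 987 of all 12110 tested genes. Among the 9, none of which passed, were Irf7 (1.05 ± 0.35), Ifit2 (0.74 ± 0.26) and Irgm1 (0.64 ± 0.25). The median was 0.39, beside -0.02 over all tested genes, and became 0.19 without FFD R31 and 0.59 without FFD R28.

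HiAD+PM against HiAD asks what pyridoxamine changed on the HiAD diet, with 2 treated libraries. Of the 39 tested genes 8 were higher with PM (20.5%), against 3.31% of all tested genes, and 0 were lower, against 3.14%. Of the 7 GTPases 5 were higher (Iigp1, Gbp7, Igtp, Irgm1 and Ifi47), and Ifit3b, Rtp4 and Isg15 made up the rest. The median log2 fold change was 0.82, beside 0.01 over all tested genes, and 36 of the 39 were above 0. Both PM libraries exceeded all HiAD libraries for 31 of the 39 (79.5%), which held for 26% of all tested genes. At an unadjusted p under 0.05 from limma, 26 were higher and 0 lower, again without a count over all tested genes.

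Iigp1 had a log2 fold change of 1.56 ± 0.26 (adjusted p = 0.00415 from limma) and Igtp of 2.22 ± 0.44 (adjusted p = 0.0101 from limma). Gbp7 (chr3:142530342-142550149), a guanylate-binding protein, was at 3.51 and 4.9 scaled FPKM with PM, 0.411, 0.692 and 0.779 in HiAD, 1.35, 2.93 and 1.61 in FFD, 1.99, 1.05 and 0.768 in chow and 3.72, 2.16 and 2.3 in RageHepKO. HiAD overlapped chow alone, and the log2 fold change with PM was 1.67 ± 0.29 (adjusted p = 0.00480 from limma).

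Irgm1, which shields host membranes from the other GTPases, was at 9.58 and 10.5 scaled FPKM with PM and 3.03, 5.65 and 3.42 in HiAD (log2 fold change 1.17 ± 0.28, adjusted p = 0.0284 from limma). Ifi47 was at 5.49 and 7.26 with PM and 1.35, 2.27 and 1.41 in HiAD (1.47 ± 0.36, adjusted p = 0.0320 from limma). Ifit3b was at 3.13 and 3.52 with PM and 0.2, 1.74 and 0.289 in HiAD (1.42 ± 0.34, adjusted p = 0.0286 from limma). None of the 3 genes overlapped between these groups, and Ifit3b was higher in both PM libraries than in any of the other 12 libraries. Rtp4 and Isg15 had log2 fold changes of 1.05 ± 0.27 and 2.76 ± 0.70 (adjusted p = 0.0353 and 0.0366 from limma).

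The transcription factors did not pass with PM, although all 4 lay above every HiAD library. Irf9 had a log2 fold change of 1.09 ± 0.31 (adjusted p = 0.0566 from limma) and Irf7 of 1.28 ± 0.39 (adjusted p = 0.0776 from limma). The 3 genes below 0 were Rsad2 (-0.38 ± 0.46), Gbp2 (-0.18 ± 0.39) and Usp18 (-0.07 ± 0.28), each with overlapping groups. The count of 8 was 0 without HiAD+PM R19 and 3 without HiAD+PM R18, HiAD B1 or HiAD B3 or with no filter, and a group left with 1 library is assumed to vary like the others. Over all tested genes the 401 higher became 210 without HiAD B1, 208 without HiAD B3 and 309 with no filter. Calls over all tested genes also fell without HiAD+PM R18 or R19. Fold changes of the 8 without R19 lay between 1.07 (Rtp4) and 2.85 (Isg15).

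Against FFD, HiAD+PM gave 0 lower genes, against 0.0165% of all tested genes, and 0 higher, against 0.116%. The smallest adjusted p was 0.402 from limma, and 1 gene, Gbp7 (0.84 ± 0.29), was higher and 0 were lower at an unadjusted p under 0.05. The median was 0.15, beside 0.03 over all tested genes, and it was 0.04 without FFD R28, 0.08 without FFD R32 and 0.36 without FFD R31. For Iigp1 the 95% interval of the log2 difference ran from -0.31 to 0.82, and for Isg15 from -1.41 to 1.63.

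RageHepKO against HiAD asks what loss of RAGE in hepatocytes changed on the HiAD diet, in libraries whose Ager level went against that label. Of the 39 tested genes 19 were higher in the libraries labelled RageHepKO (48.7%), against 15.7% of all tested genes. Without Oas2, which met the filter through this group alone, the count was 18 of 38 (47.4%). A further 2 were lower (5.13%), against 17.7%. The 4 transcription factors were all higher, as were Isg15 and Herc6, Ifit1 and Ifit3, Oas2, Dhx58 and Zbp1, Mx2, Rtp4 and Xaf1, Ifi27 and Ifi35, and the GTPases Iigp1, Gbp3 and Gbp7. The genes that were lower were Dtx3l and Parp9. The median was 0.68, beside -0.00 over all tested genes.

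Ifi35 had 18.8, 13.4 and 17.2 scaled FPKM in RageHepKO (log2 fold change 1.78 ± 0.19, adjusted p = 0.000191 from limma), above all 11 other libraries. Mx2, annotated as a polymorphic pseudogene, had 3.5, 3.76 and 3.84 against 0.491, 0.436 and 0.377 in HiAD (1.71 ± 0.22, adjusted p = 0.000387 from limma). Ifi27, a small interferon-induced membrane protein, had 10.6, 22.6 and 25.7 against 4.24, 7.17 and 3.91 (1.71 ± 0.29, adjusted p = 0.00153 from limma). The groups did not overlap for any of the 3. Ifit1 had 37.3, 13.6 and 14.3 against 0.998, 5.28 and 2.83 (2.49 ± 0.46, adjusted p = 0.00231 from limma), with RA19 well above RA20 and RA21. Irf7 and Isg15 had log2 fold changes of 2.14 ± 0.35 and 3.04 ± 0.63 (adjusted p = 0.00127 and 0.00396 from limma).

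Dtx3l had 6.75, 6 and 4.31 scaled FPKM in RageHepKO, below every HiAD library (log2 fold change -1.09 ± 0.31, adjusted p = 0.0177 from limma). Parp9 had 3.47, 5.54 and 3.94 against 6.26, 9.7 and 6.91 in HiAD (-0.70 ± 0.24, adjusted p = 0.0380 from limma), also without overlap. Parp14, which lies beside them on chromosome 16, was at 0.15 ± 0.31. Ly6e, a surface protein that restricts viral fusion, had 14.1, 21.9 and 19.6 in RageHepKO and 35, 56.4 and 30.6 in HiAD without overlap, yet did not pass (-1.07 ± 0.59), and chow R2 alone reached 151 beside 27.4 and 20.1 in R1 and R3. Bst2 ranged from 28.5 to 178 scaled FPKM among the RageHepKO libraries. RA19, its lowest library, had the highest mitochondrial share (53.1%), and the part of that share in these results was not tested.

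The GTPases that passed with PM divided here. Gbp7 (1.18 ± 0.26) and Iigp1 (0.68 ± 0.23) were higher (adjusted p = 0.00487 and 0.0391 from limma), while Igtp (0.48 ± 0.39), Irgm1 (0.32 ± 0.25) and Ifi47 (0.28 ± 0.33) did not pass. Both comparisons share the HiAD libraries, and the difference between them was not tested. The count of higher genes was 11 without HiAD B1 or HiAD B3 and 12 without RageHepKO RA19. The count of lower genes was 1 without FFD R32, HiAD B2, HiAD+PM R18, HiAD+PM R19 or RageHepKO RA19, and 0 without HiAD B3 or RageHepKO RA21. With FPKM as deposited, 11 were higher. Over all tested genes the 1900 higher became 1412 without HiAD B1, 1293 without HiAD B3, 1636 without RageHepKO RA19 and 952 as deposited. The 2144 lower became 1498 without HiAD B3 and 1805 without RageHepKO RA21. They became 1961 without FFD R32, 1594 without HiAD B2 and 1949 without RageHepKO RA19.

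**Figure D3:**
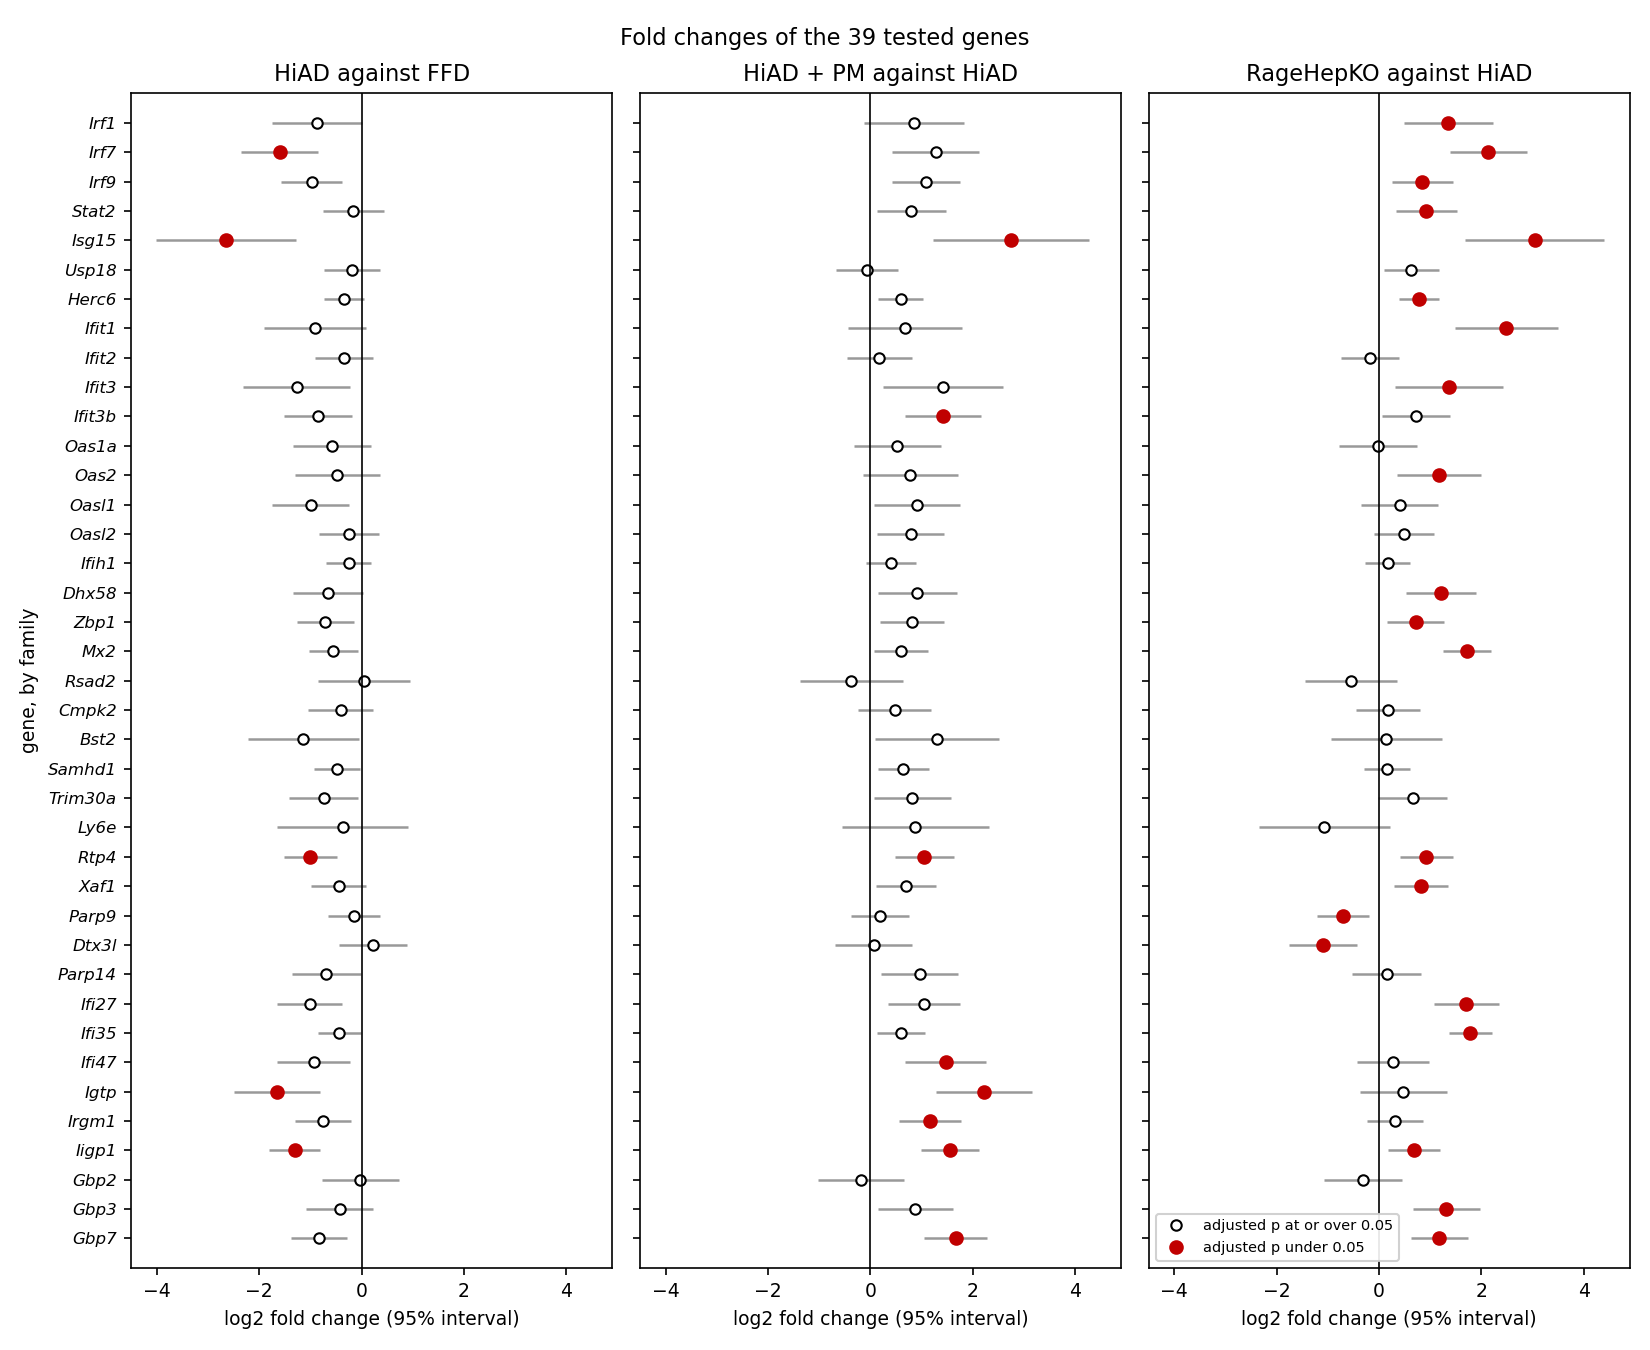
Log2 fold changes (horizontal axes) of the 39 tested genes in 3 comparisons that share the HiAD libraries; bars are 95% intervals and filled red points passed an adjusted p under 0.05. There are 5 filled points below 0 for HiAD against FFD, 8 above 0 for HiAD + PM against HiAD, and 19 above and 2 below 0 for RageHepKO against HiAD.

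The rest of the interferon pathway was read from lists of ligands, receptors, signalling genes, sensors and further targets. Of 21 interferon genes, 18 were listed at 0 in every library and none reached 1 scaled FPKM, the highest being Ifnz at 0.337 in chow R1. Receptor genes were measured at up to 25.7 scaled FPKM (Ifnar2). Between HiAD and FFD 0 of 5 tested receptor genes passed, and 0 of 17 tested sensors and adaptors, with 0 also in both lists for HiAD against chow.

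Of 66 tested further interferon-stimulated genes that are in no other list, 2 were lower on HiAD than on FFD (3.03%, against 1.45% of all tested genes) and 0 higher (against 1.66%), with a median of -0.30. They were Apol9b (-2.61 ± 0.57) and the aminopeptidase gene Lap3 (-0.76 ± 0.18). At an adjusted p under 0.05 from limma, Lap3 (-0.88 ± 0.18) was also lower on HiAD than on chow.

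With PM, the receptor kinase gene Tyk2 (1.07 ± 0.20) was higher than in HiAD, as was Irf5 (1.18 ± 0.26). Irf5 was the 1 that passed among the 17 sensors and adaptors (5.88%, against 3.31% of all tested genes). Of the 66 further targets 7 were higher (10.6%, against 3.31% of all tested genes) and 0 lower (against 3.14%), with a median of 0.38. By p they were led by Lap3 (0.96 ± 0.20), Apol9b (3.03 ± 0.63), Ifitm3 (1.98 ± 0.42), which blocks viral entry, and Apol9a (2.16 ± 0.48). Ifitm3 was at 747 and 732 scaled FPKM with PM and at 231, 305 and 91.7 in HiAD.

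In the libraries labelled RageHepKO, 2 of 5 tested receptor genes were higher than in HiAD (40%, against 15.7% of all tested genes). They were Ifnar2 (0.86 ± 0.18), a chain of the type I receptor, and Il10rb (0.83 ± 0.22), a chain of the interferon lambda receptor. Among signalling genes Tyk2 (0.81 ± 0.18) was higher, and Ptpn11 (-1.47 ± 0.24) and Stat3 (-1.18 ± 0.39) lower. Of 17 sensors and adaptors 4 were higher (23.5%) and 3 lower (17.6%), near the 15.7% and 17.7% of all tested genes, and those with the smallest p were Traf6 (-1.23 ± 0.24), Ikbke (1.17 ± 0.29), Adar (0.74 ± 0.19) and Unc93b1 (0.95 ± 0.28). Of the 66 further targets 25 were higher (37.9%, against 15.7% of all tested genes) and 1 was lower (1.52%, against 17.7%), with a median of 0.52, led by Trim12c (1.95 ± 0.28), Gbp8 (1.63 ± 0.25), Apol9b (3.40 ± 0.57) and Psmb8 (1.53 ± 0.27), a subunit of the immunoproteasome.

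Of the marker lists for other cells, the Kupffer list had its lowest sums in HiAD B3 and HiAD B1, which also had the lowest medians over the members. The summed level of 9 Kupffer cell markers was 119 to 183 scaled FPKM in HiAD, 157 to 342 in chow, 280 to 1120 in FFD, 306 to 357 in HiAD+PM and 271 to 501 in RageHepKO. The top value belonged to FFD R31, the library with the highest median over the members. Chow R1 had nearly the same sum as HiAD B1 (157 and 155), while their medians over the members were -0.05 and -0.68. For HiAD+PM against FFD all 9 Kupffer markers had log2 fold changes below 0, with a median of -0.66. Of the 39 members 30 were above 0 there, with a median of 0.15, and 0 genes passed in either list. Of the 9 Kupffer markers, Timd4 (-2.56 ± 0.41), Clec4f (-2.20 ± 0.40) and Cd5l (-2.21 ± 0.48) were lower in HiAD than in FFD (33.3%, against 1.45% of all tested genes). Timd4 (2.02 ± 0.46) and Clec4f (1.79 ± 0.44) were higher with PM (22.2%, against 3.31%), and 4 were higher in RageHepKO (44.4%, against 15.7%). Recruited myeloid cell markers, 6 in number with 3 tested, summed to 322 in FFD R31 and to 26.6 to 104 in all other libraries. HiAD+PM (54.4 to 54.5) lay inside the HiAD range (26.6 to 84.4). Most of the sum in FFD R31 was 1 gene, Lyz2, at 302 there. The mean of Lyz2 was 156 in FFD and 44.6 in HiAD, beside 1.29 and 1.07 for Ccr2. The 6 endothelial cell markers summed to 22.4 to 37.8 in HiAD, 20.6 to 30.8 in FFD and 16.9 to 20 in HiAD+PM. With PM their median log2 fold change was -0.39 against HiAD and 1 of them, Lyve1, was lower (-1.96 ± 0.45). That is 16.7% of the 6, against 3.14% of all tested genes. For HiAD against FFD the median was 0.03 with 0 passing. In RageHepKO 2 of the 6 were higher than in HiAD (33.3%, against 15.7%), with a median of -0.12. The 5 plasmacytoid dendritic cell markers, for the main interferon-producing blood cell, summed to 0.146 to 0.909 in all libraries, highest in HiAD B3, with none tested. The 10 T, NK or B cell markers summed to 1.46 to 2.66 in HiAD and 3.41 to 10.5 in RageHepKO. Their sums were 1.86 to 3.22 in chow, 1.78 to 5.16 in FFD and 2.02 to 3.14 in HiAD+PM. Of the 2 that were tested, 1 was higher in RageHepKO than in HiAD (50%, against 15.7% of all tested genes). The part of these cells in the results was not tested.

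**Figure D4:**
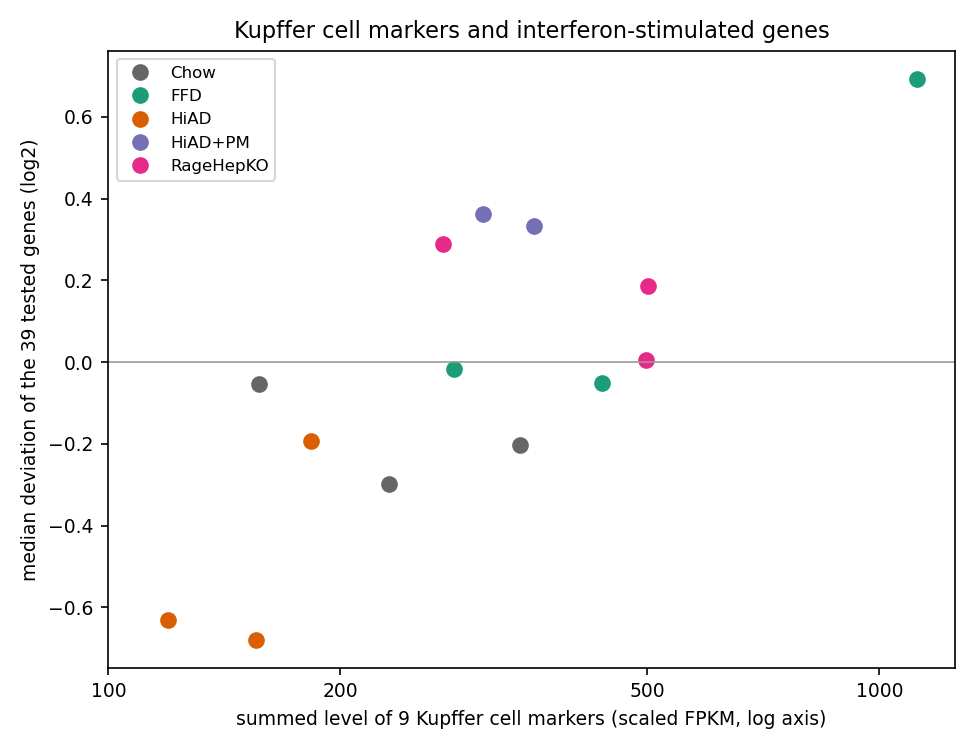
Each point is a library, with the summed scaled FPKM of 9 Kupffer cell markers on the horizontal log axis and the median deviation of the 39 tested genes on the vertical axis (log2). The HiAD libraries lie at 119 to 183 with medians of -0.68 to -0.19, and chow R1 lies at 157 with -0.05. FFD R31 lies at 1120 with 0.69, and FFD R28 and HiAD+PM R18 lie at 436 and 357 with -0.05 and 0.33.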

How the data were processed

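Total RNA of snap-frozen liver was sequenced as paired reads. Per the labels and the study's methods, reads were aligned to GRCm38 (mm10) and counted by molecular identifier against GENCODE. The deposited values are named raw counts but behave as FPKM, that is, as scaled to transcript length and library total. For this reason no count test was run, and the read depth is unknown. FPKM multiplied by exon length summed to 900231 to 992634 per library. Of 55583 entries, 27 named by dates and 129 identical repeats were left out. A factor for each library came from the log ratios of 6522 genes, averaged after trimming 30% at each end. With a minimum of 1 scaled FPKM in 2 or more libraries, 12110 genes were fitted on log2(scaled FPKM + 1) in limma 3.58.1 (R 4.3.3; trend and robust variance, 5 group means, 14 libraries), adjusted by Benjamini-Hochberg over all tested genes with a threshold of 0.05. The study's voom fit with sample weights needs counts, so weights were used as an alternative. Positions come from GENCODE M21 and promoters from RefSeq (GRCm38.p6).

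The genes and lists were chosen with earlier results of these data known. Values in every library were to be given for Irf1, Irf7, Irf9, Stat2 and the 6 genes with the smallest p between HiAD and FFD, since fewer than 6 passed, and in the other comparisons for up to 6 that passed. In the other lists, up to 4 that passed were named by p. Results for 1 signalling gene, and counts over its list, are not reported here. Values of Dtx3l, Parp9, Ly6e, Bst2 and genes just short of the threshold were added after they were seen. Libraries are separate samples by their labels, and p-values measure the spread between them. No 2 libraries were identical. The series record gives 3 mice a group, and HiAD+PM has 2 libraries here.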

Additional observations from a re-analysis of the deposited data

How the results depend on the processing

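Alternatives were another filter, pseudocount or scaling, sample weights, other sets of libraries, and leaving out each library. Of 39 single-gene results followed, covering 872 values, none reversed, 696 kept their side of the threshold, 175 lost it and 1 gained it. Of 21 RageHepKO calls 9 held in every setting where the gene was tested. One of them, Herc6, was tested in 21 of 22 settings. None held so for HiAD against FFD (0 of 5), HiAD+PM against HiAD (0 of 8) or HiAD against chow (0 of 2). Where a count or median changed, the cause was not tested unless fewer libraries or more genes tested set it.

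With no filter, 1 gene was lower for HiAD against FFD, 1 for HiAD against chow, 3 were higher for HiAD+PM against HiAD, and 0 were lower for RageHepKO against HiAD. Over all 27549 genes then tested, the matching counts were 93, 139, 309 and 1856. With sample weights, 8 were lower against FFD and 8 against chow, 24 were higher with PM and 1 was lower in RageHepKO. A further 1 was higher for FFD against chow and 2 for HiAD+PM against FFD. Calls rose over all 12110 tested genes in most of these comparisons too. There the matching counts were 508, 1111, 1575, 1994, 204 and 630 with weights, and 175, 220, 401, 2144, 1 and 14 without. In a fit of the compared groups alone the counts were 3 lower against FFD, 0 against chow, 15 higher with PM, and 12 higher and 1 lower in RageHepKO. The matching counts over all genes were 293 of 10581, 110 of 10820, 783 of 10516, and 1232 and 1430 of 11137. With FPKM as deposited, 11 were higher in RageHepKO, with a median of 0.42. Over all 12081 genes then tested, 952 were higher and the median was -0.26. A pseudocount of 0.1 moved the medians to -1.08 (HiAD against FFD), -0.55 (HiAD against chow), 1.27 (HiAD+PM against HiAD), 0.98 (RageHepKO against HiAD) and 0.67 (FFD against chow).

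Leaving out single libraries gave 0 to 6 lower genes and medians of -0.81 to -0.37 for HiAD against FFD, 0 to 4 lower genes for HiAD against chow, 0 to 12 higher for HiAD+PM against HiAD, and 11 to 19 higher and 0 to 3 lower for RageHepKO against HiAD. Over all tested genes the lower calls then ran from 71 to 250 against FFD and from 86 to 377 against chow. For RageHepKO against HiAD, 1293 to 2091 of all tested genes were higher and 1498 to 2379 lower. Chow and HiAD share replicate numbers: with the replicate number as a block, 0 genes were lower, against 46 of all 10820 genes then tested. Deviations of same-numbered samples correlated at -0.09 to 0.04, so the numbers were not read as pairs.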
